A study of Mus musculus with 2 samples.

Results

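Primitive streak and early mesoderm genes were examined in embryonic stem (ES) cells that overexpress Klf5: Mesp1, Mesp2, Mixl1, Gsc, Evx1, Msgn1 and Kdr. The members are all probe sets that the platform annotation pairs with 1 of these symbols alone. They came to 7 probe sets of 7 genes, out of 34945 such probe sets and 18193 genes. Mesp1 and Mesp2 lie on chromosome 7, Gsc and Msgn1 on chromosome 12, Mixl1 on chromosome 1, Evx1 on chromosome 6 and Kdr on chromosome 5. Mesp1 was selected on its signal difference between the clones on these arrays, so its values are a description and carry no test.

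The study measured total RNA of 2 clones of mouse E14 ES cells overexpressing Klf5, a zinc finger transcription factor. Both clones share the overexpression and were kept undifferentiated in ES medium with serum and LIF (leukaemia inhibitory factor, which sustains self-renewal). One Affymetrix array was hybridised per clone, so the data are 1 group with n = 2, and each clone is a single line. The sources used here do not give the construct or the promoter that drives Klf5. The question of the study was how such clones differ from wild-type ES cells. Arrays of wild-type cells were not analysed here, so the values describe the overexpressing clones and not an effect of Klf5.

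The primitive streak is the region of the gastrulating embryo where epiblast cells leave the epithelium and become mesoderm and endoderm. Nodal, WNT and BMP signals induce it, and T-box factors such as Eomes then switch on Mesp1 and other mesoderm genes. Undifferentiated ES cells resemble the epiblast before this step, and they reach it when LIF is withdrawn or the inducing signals are added. Mesp1 and Mesp2 are related basic helix-loop-helix (bHLH) factors encoded next to each other. Mesp1 marks the earliest heart progenitors and Mesp2 sets the boundaries of somites. Msgn1 is a bHLH factor of presomitic mesoderm. Mixl1, Gsc and Evx1 are homeodomain factors of the streak, with Gsc typical of its anterior end and Evx1 of its posterior part. Kdr is the VEGF receptor VEGFR2, which marks mesoderm that can form blood, vessels and heart.

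The proximal promoters of Mesp1 and Mesp2 are shown because these neighbours were the members with a signal above background, Mesp1 in clone 1 alone and Mesp2 in both clones. Both windows come from RefSeq in build GRCm38.p6 and run from 250 bases before to 50 bases after the annotated start, 5′ to 3′ on the strand of the gene. The Mesp1 window is chr7:79793541-79793840 on the minus strand and the Mesp2 window is chr7:79810477-79810776 on the plus strand, with 16636 bases between them. Capitals mark matches on either strand to CACCC and GGGCGG, letters typical of Klf and Sp factor sites, and to GGTGTG, the core of a T-box half-site.
Mesp1: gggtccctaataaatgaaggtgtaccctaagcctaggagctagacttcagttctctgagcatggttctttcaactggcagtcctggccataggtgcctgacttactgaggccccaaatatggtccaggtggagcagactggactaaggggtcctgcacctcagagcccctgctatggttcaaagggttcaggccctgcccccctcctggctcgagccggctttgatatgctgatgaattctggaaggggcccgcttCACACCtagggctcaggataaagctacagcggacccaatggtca
Mesp2: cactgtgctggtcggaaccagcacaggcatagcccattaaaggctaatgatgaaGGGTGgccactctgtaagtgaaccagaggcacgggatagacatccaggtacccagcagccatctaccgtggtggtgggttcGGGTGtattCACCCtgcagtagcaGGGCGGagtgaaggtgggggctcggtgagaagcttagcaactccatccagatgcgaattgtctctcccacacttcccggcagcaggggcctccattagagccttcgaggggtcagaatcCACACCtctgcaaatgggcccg

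The Mesp2 window held 3 matches to CACCC (or GGGTG on the other strand), 1 to GGGCGG and 1 to GGTGTG, the last read as CACACC. The Mesp1 window held 1 match to GGTGTG, also read as CACACC, and no match to the other 2 motifs. CACACC and CACCC can overlap where a further C follows, which is not so in these windows. Among 32851 promoter windows of the same length, 57.5% held CACCC, 35.7% GGGCGG and 19.0% GGTGTG, and 9.35% held CACCC at least 3 times. Promoter windows were found for 6 of the 7 members, all but Mixl1. Evx1 also held GGTGTG once, and CACCC occurred once in the windows of Evx1, Gsc and Kdr and 2 times in that of Msgn1. GGGCGG occurred 2 times in those of Gsc and Kdr. These matches describe letters in the windows and are not measured binding sites.

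Across both arrays 45037 probe sets were read, and the signals of the clones correlated across them (r = 0.990, a description, since features of an array are no replicates). The median signal was 5.27 in clone 1 and 5.18 in clone 2 on the log2 scale. Background was judged from 50 genes that belong to adult tissues such as lens, pancreas, lung or muscle. The level in each array was the 95th percentile of their 73 probe sets. It was 6.70 in clone 1 and 6.29 in clone 2. All 8 ES cell markers read, among them Zfp42 (12.69 in clone 1 and 12.77 in clone 2) and Klf4 (11.16 and 11.67), were above background in both clones. A second Klf4 probe set gave 9.29 and 10.41, past 2-fold. Of 5 fibroblast feeder markers only Thy1 was (7.54 and 7.66), and of 4 neurectoderm markers only Nes (6.90 and 7.14). Of 4 definitive endoderm markers Hhex passed in both clones (7.32 and 7.68). Sox17 passed in clone 2 alone by its brightest probe set (6.31 and 6.81), with a bound of 1.08-fold. Its other probe set was under background in both clones (5.85 and 6.13).

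Mesp1 and Mesp2 were the members above background, Mesp1 in clone 1 alone and Mesp2 in both clones. In clone 1 this is 2 of 7 members, where 47.9% of all 18193 genes were above background, and in clone 2 it is 1 of 7, where 52.6% were. In at least 1 clone it is 2 of 7, against 52.7% of all genes. The other 5 members were above background in neither clone. RNA was taken from whole cultures, so fewer cells that express a gene and less of its RNA per cell cannot be told apart.

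**Figure D1:**
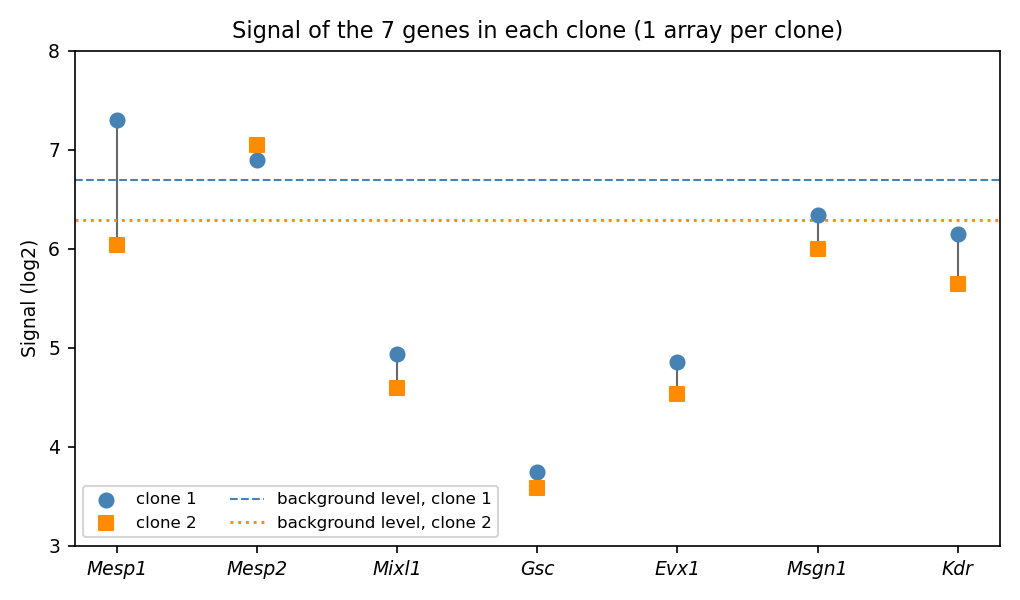
Signal of the 7 genes on the log2 scale in clone 1 (circles) and clone 2 (squares), 1 array each; lines join the clones, and the horizontal lines are the background levels of 6.70 (clone 1, dashed) and 6.29 (clone 2, dotted). Mesp1 lies above its level in clone 1 and below it in clone 2, Mesp2 lies above in both, and the other 5 genes lie below in both.

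Mesp1, the regulator of early cardiac mesoderm, gave 7.30 in clone 1 and 6.04 in clone 2 (6.67 ± 0.89, SD, n = 2). The signal was 0.60 above the background level in clone 1 and 0.25 under it in clone 2. Clone 1 was thus the brighter clone, by 2.39-fold as measured. Because the probe set was not above background in clone 2, the difference is better given as a bound. With clone 2 raised to its background level, Mesp1 was at least 2.01-fold higher in clone 1. The bound was 1.52-fold with the higher background level asked of both clones and 1.89-fold after median centring of the arrays, both chosen after the data were seen. With the 99th percentile as the level, 8.06 in clone 1, Mesp1 was above background in neither clone. That level is drawn up by 1 adult tissue probe set, that of Mylpf (10.53 in clone 1 and 10.48 in clone 2). The next brightest, of Cela1, was 7.10 in clone 1, dimmer than Mesp1. Where the level came from olfactory, vomeronasal and taste receptor probe sets (5.05 in clone 1 and 4.87 in clone 2), Mesp1 was above background in both clones. No bound applies there, and the 2.39-fold is as measured. Whether Mesp1 counts as above background in clone 1 alone therefore depends on how the level is set. With 1 array per clone there is no replicate check and no p-value. A single probe set reads Mesp1, so no second probe set could be compared with it. The platform annotation pairs this probe set with a GenBank cDNA and not with the RefSeq transcript of Mesp1. The probe sequences were not used here, so which transcript the Mesp1 values measure was not checked.

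In clone 1, 1 of the 73 adult tissue probe sets was as bright as Mesp1 or brighter, and in clone 2, 8 were. Of 9591 genes above background in at least 1 clone, 8 (0.0834%) had a measured signal at least 2-fold higher in clone 1 and 35 (0.365%) at least 2-fold higher in clone 2. Mesp1, picked for this difference, was 1 of those 8, with a measured -1.26 (clone 2 minus clone 1, log2). With the dimmer clone raised to its background level, 5 of the 8 kept a 2-fold bound, Mesp1 among them (chosen after the data were seen). Only 27 genes (0.148%) were above background in clone 1 alone, against 877 in clone 2 alone, where the level was lower. Of those 27 genes, 4 had a measured signal at least 2-fold higher in clone 1. With the bound only Mesp1 did, at 2.01-fold, but it was picked for this difference, so this is no support. Its bound fell under 2-fold after median centring (1.89-fold) and with the higher background level asked of both clones (1.52-fold).

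**Figure D2:**
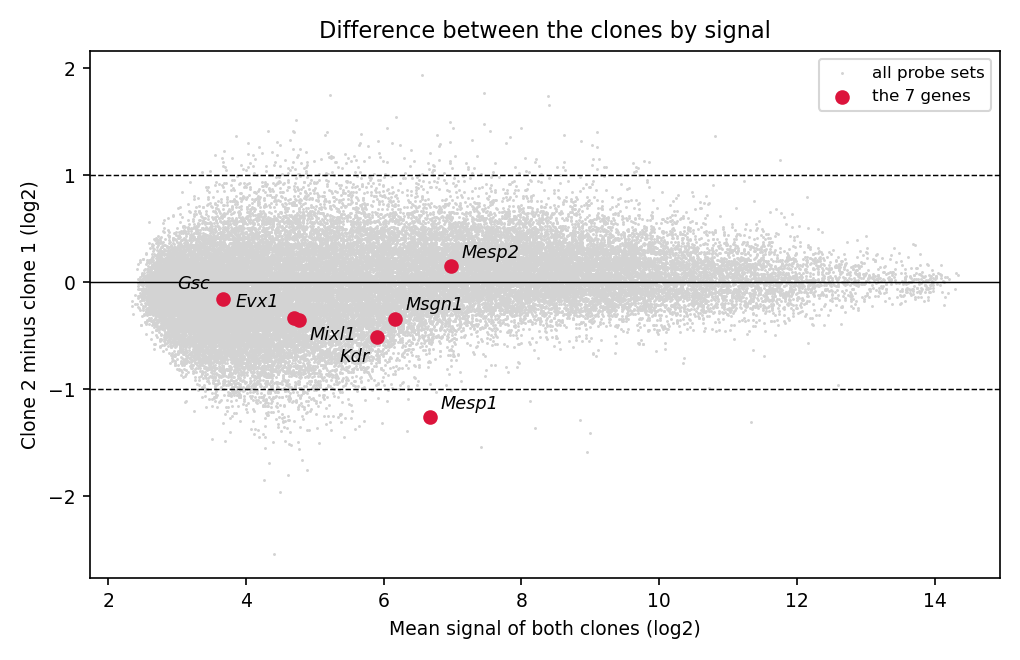
Clone 2 minus clone 1 (log2, y axis) against the mean signal of both clones (log2, x axis) for all 45037 probe sets (grey) and the 7 genes (red); dashed lines mark 2-fold. Mesp1 lies at -1.26, below the lower dashed line, and the other 6 genes lie within the grey cloud between the dashed lines.

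Mesp2, the somite boundary factor, gave 6.90 in clone 1 and 7.05 in clone 2 (6.98 ± 0.11, SD, n = 2). It was above background in both clones, by 0.20 in clone 1 and 0.76 in clone 2. Clone 2 was 1.11-fold brighter, a difference of 0.15 on the log2 scale. As deposited it was the only member with the higher signal in clone 2; Gsc joined it, by 0.01 or less, after quantile or loess normalization. Of the 4230 probe sets with a mean signal within 0.5 of that of Mesp2, 63.4% differed between the clones by at least as much, in either direction. The SD of the difference over these probe sets was 0.32, and the 0.15 of Mesp2 lay within it. That spread is across different probe sets. It is no error for Mesp2, which 1 array per clone cannot give.

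The related bHLH factor Msgn1 gave 6.34 in clone 1 and 6.00 in clone 2 (6.17 ± 0.24, SD, n = 2), under the background level by 0.36 and 0.29. It lay close to that level: with the 90th percentile of the adult tissue probe sets as the level, 6.23 in clone 1 and 6.11 in clone 2, Msgn1 passed in clone 1. Kdr, the VEGF receptor, gave 6.15 and 5.64 (5.90 ± 0.36, SD, n = 2), under the level by 0.55 and 0.65. Both genes passed in both clones where the level came from olfactory, vomeronasal and taste receptor probe sets, 5.05 in clone 1 and 4.87 in clone 2. Whether they count as above background therefore depends on how that level is set.

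The homeodomain factors were dimmer relative to background. Mixl1, which acts in mesendoderm, gave 4.94 in clone 1 and 4.59 in clone 2 (4.77 ± 0.25, SD, n = 2). Evx1, a posterior streak factor, gave 4.86 and 4.53 (4.70 ± 0.23, SD, n = 2). Gsc, the factor of the anterior streak, gave 3.74 and 3.58 (3.66 ± 0.11, SD, n = 2). All 3 were at least 1.70 under the background level in each clone. In clone 1, 23 of the 73 adult tissue probe sets were as bright as Mixl1 or brighter, 25 for Evx1 and 46 for Gsc, and in clone 2 these counts were 26, 27 and 45. Signals of this size cannot be told from those of genes restricted to adult tissues, and they do not show that the transcripts are absent.

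All 5 members above background in neither clone had the lower signal in clone 2 as deposited, with differences from -0.51 (Kdr) to -0.16 (Gsc) and a median of -0.34. The same direction prevailed among dim genes at large. Of 8602 genes above background in neither clone, 65.9% had the lower signal in clone 2, with a median difference of -0.15. Of the 9591 genes that passed in 1 or both clones, 34.5% did, with a median of 0.09. Kdr had the largest difference of the 5, and 17.9% of the 5054 probe sets with a mean signal within 0.5 of its own differed by at least as much in either direction. For Msgn1 that share was 34.4%, for Mixl1 44.5%, for Evx1 47.4% and for Gsc 69.5%. After quantile or loess normalization the difference of Gsc was 0.01 and 0.0019, and 5 of the 7 members were then lower in clone 2.

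The neighbours of Mesp1 and Mesp2 on chromosome 7 did not share the difference of Mesp1. No protein-coding gene lies between the pair in the RefSeq order. Of the 5 nearest measured protein-coding genes on each side, 9 of 10 were above background in at least 1 clone, and none differed 2-fold. Their differences ran from -0.13 to 0.33 with a median of 0.07, and 4 were lower and 5 higher in clone 2. On the side of Mesp1 the peroxisomal factor Pex11a was 7.87 in clone 1 and 7.75 in clone 2, and Kif7, a kinesin of hedgehog signalling, was 6.64 and 6.71. On the side of Mesp2 the aminopeptidase Anpep was 6.65 and 6.58, and Ap3s2, an adaptor complex subunit, was 7.24 and 7.42. The lowest and highest differences were those of Idh2 (10.46 and 10.33), a mitochondrial dehydrogenase, and Arpin (6.44 and 6.77), an Arp2/3 inhibitor. Rhcg, an ammonium transporter, was above background in neither clone (4.56 and 4.81).

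**Figure D3:**
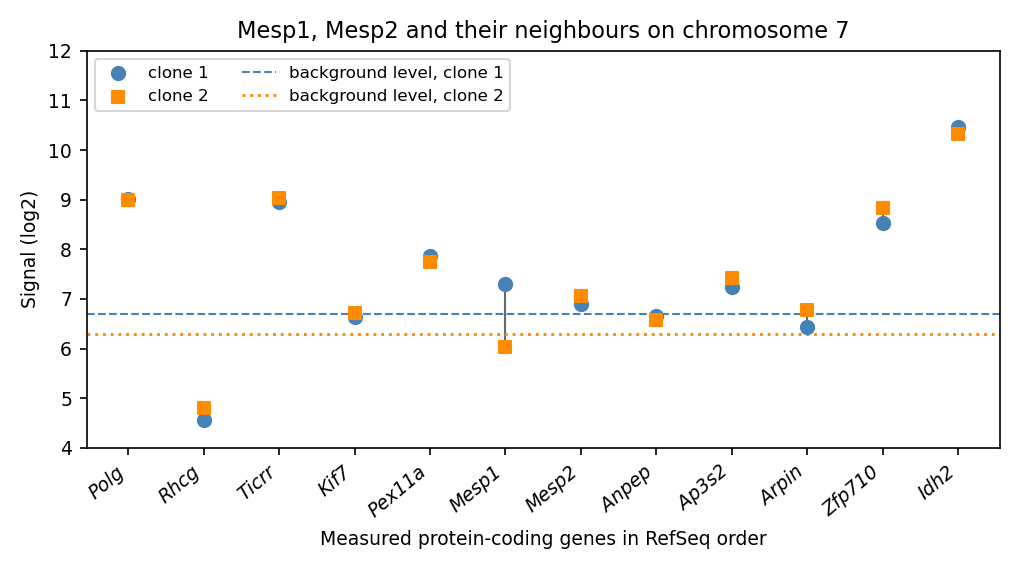
Signal (log2) in clone 1 (circles) and clone 2 (squares) of Mesp1, Mesp2 and the 5 nearest measured protein-coding genes on each side, in RefSeq gene order, with the background levels of clone 1 (dashed) and clone 2 (dotted). Mesp1 is the gene whose clones lie apart, at 7.30 and 6.04; the 10 neighbours differ by -0.13 to 0.33.

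Genes that act around the members were read in 6 lists. Of 109 genes listed, 104 were measured and 45 (43.3%, beside 52.7% of all genes) were above background, all 45 in both clones. Of these 45, 29 were higher in clone 2, 13 lower and 3 equal, with a median difference of 0.08 beside 0.09 over all genes above background. Otx2, read by a single probe set that may bind several of its transcripts, alone differed 2-fold, and no listed gene was 2-fold higher in clone 1 as Mesp1 was.

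Of the inducing signals, 19 of 25 measured genes were above background, with a median difference of 0.11. The Nodal co-receptor Tdgf1 was 13.00 in clone 1 and 13.01 in clone 2, and Ctnnb1 (beta-catenin), the WNT effector, was 13.08 and 13.12 by its brightest probe set, with 11.11 and 11.05 and 10.42 and 10.32 by the others. The FGF receptor Fgfr1 was 7.73 and 8.33 by its brightest probe set but 7.63 and 7.69 by another. Its last probe set was under background in both clones (5.44 and 5.84). Smad4, the common SMAD of Nodal and BMP signalling, was 10.70 and 11.17 by its brightest probe set, but its other probe sets were lower in clone 2, with 10.30 and 10.19 in one and 10.06 and 9.48 in another. Picked after their values were seen, the streak ligands Wnt3 (2.73 and 2.73), Wnt3a (5.86 and 4.94) and Fgf8 (3.71 and 3.32) were above background in neither clone. Nodal (10.73 and 10.56) and Bmp4 (10.96 and 11.30), picked likewise, were above it in both.

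Of 14 measured transcription factors of the streak, 3 were above background, beside 52.7% of all genes. By their brightest probe sets all 3 were higher in clone 2, as were 6127 of the 9591 genes above background. Eomes, the T-box factor upstream of Mesp1, was 8.24 and 8.60 by its brightest probe set, while its second probe set was 8.19 and 8.01. Otx2, which marks the formative epiblast and anterior tissue, was 7.27 and 8.71, or 2.71-fold higher in clone 2. The third was Hhex, chosen after its values were seen. Picked after their values were seen, the Mesp2 activator Tbx6 (4.62 and 4.31) and the WNT target Sp5 (5.26 and 5.17) were above background in neither clone.

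In the list of paraxial mesoderm and segmentation, where Mesp2 and Msgn1 act, 6 of 17 measured genes were above background, with a median difference of 0.17. The Notch effector Rbpj was 11.73 in clone 1 and 11.85 in clone 2, the receptor Notch1 7.25 and 7.60, and Tcf15, a bHLH factor also known from ES cells, 10.51 and 10.50. Epha4, an ephrin receptor that Mesp2 controls in somites, was 7.55 and 8.12 by its brightest probe set. The other Epha4 probe sets disagreed in direction. Signals were 7.77 and 7.63 in one, 7.72 and 7.45 in another and 6.10 and 6.81 in a further one, which passed in clone 2 alone. The cyclic segmentation genes Hes7 (5.25 and 5.43) and Lfng (6.12 and 5.46) and the Mesp2 target Ripply2 (2.62 and 2.38), picked after their values were known, passed in neither clone.

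Of 16 measured genes of cardiac mesoderm, which Mesp1 precedes, 2 were above background. They were the ETS factor Ets2 (9.50 and 9.69) and the atrial myosin light chain Myl7 (7.49 and 7.48). The heart factors Nkx2-5 (6.08 and 5.76) and Hand1 (6.01 and 5.81), picked after their values were known, passed in neither clone. In the blood and endothelial list, where Kdr acts, 9 of 20 genes were above background, 7 of them lower in clone 2, where 34.5% of all genes above background were. The median difference was -0.04, and 0.05 after median centring of the arrays. The Kdr ligand Vegfa was 8.45 and 8.66 by its brightest probe set but 7.89 and 7.77 by the other. The related receptor Flt4 was 7.13 and 7.47 by its brightest probe set, but 6.08 and 6.05 by the other, under background in both clones. Further genes were Kit, a receptor that ES cells carry, 9.57 and 9.53, and the adhesion molecule Pecam1, also found on ES cells, 8.56 and 8.27.

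Of 13 measured genes of the epithelial to mesenchymal transition, by which cells leave the epiblast, 6 were above background, with a median difference of 0.045. The sign of that median depended on the normalization: it was 0.135 after median centring and -0.02 after quantile or loess normalization. E-cadherin, Cdh1, was 11.80 and 11.82. The filament gene Vim was 11.07 and 11.31 by its brightest probe set (10.99 and 10.97, and 10.49 and 10.42, by the others). Itga5, a fibronectin receptor subunit, was 7.14 and 7.27 by its brightest probe set. Its other probe sets were under background in both clones (6.15 and 6.02, 3.87 and 3.95, and 3.73 and 3.38). Snai1, which represses Cdh1 in the streak, was above background in neither clone (5.74 and 5.63, chosen after its values were seen).

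**Figure D4:**
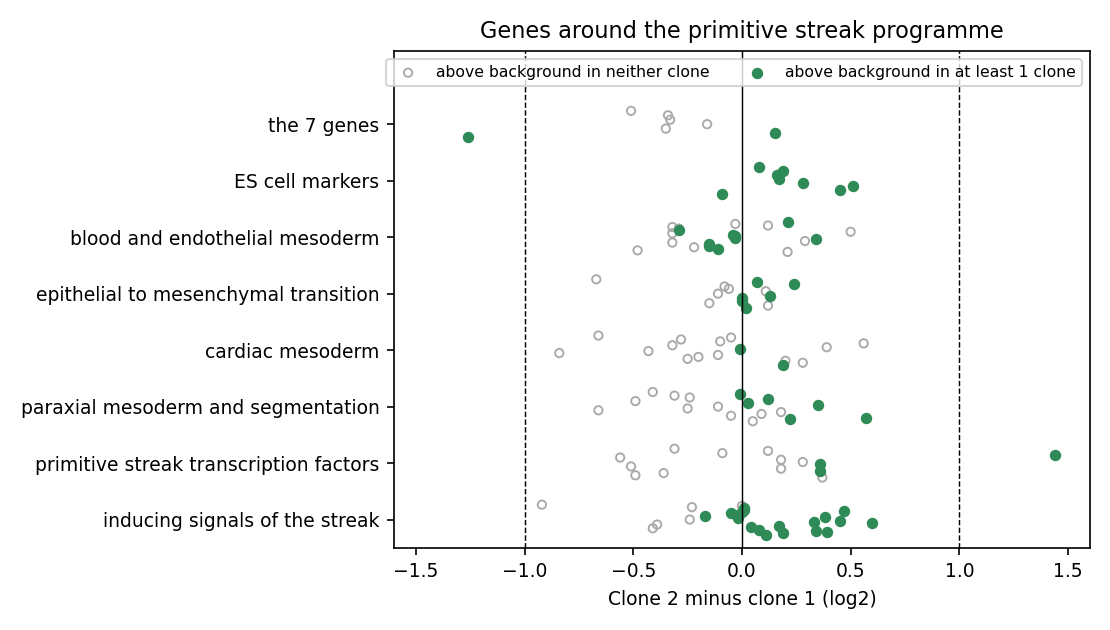
Clone 2 minus clone 1 (log2, x axis) for each measured gene of 6 lists around the primitive streak, of the ES cell markers and of the 7 genes (rows); filled points are above background in at least 1 clone, open points in neither, and dashed lines mark 2-fold. Mesp1 (-1.26) and Otx2 (1.44) are the filled points past the dashed lines.

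The genes whose clone difference was nearest to that of Mesp1 were sought among genes above background in clone 1, over the 2 clones. Measured signals were used, although Mesp1 was not above background in clone 2, so its own difference and the order of these genes are uncertain. The nearest were Phlda2 (9.49 in clone 1, 8.20 in clone 2, difference -1.29), a placental growth regulator, and Rpl27a (8.88 and 7.52, -1.36), a ribosomal protein gene. Next came Igf2 (7.03 and 5.64), a fetal growth factor, AU016916 (6.89 and 5.80) and Chpf (7.48 and 6.47, -1.01), an enzyme of chondroitin synthesis. Igf2 and AU016916 were not above background in clone 2, and their bounds were at least 1.67-fold and at least 1.51-fold higher in clone 1. Phlda2, Rpl27a and Igf2 lie on chromosome 7, as Mesp1 does. Rpl27a, as a ribosomal protein gene with many near-identical copies in the genome, is an uncertain reading. With 2 arrays likeness rests on a single difference per gene.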

How the data were processed

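For each probe set the authors deposited a log2 signal in both arrays. The submitters' processing notes name Transcriptome Analysis Console. The sources used here do not give how background was corrected, probes were summarised or arrays were normalized. Base 2 is inferred from the values, which span 2.21 to 14.38, and every fold rests on it. The values were used unchanged. Without probe intensities no detection calls were made, and 2 arrays limit the precision.

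Probe sets were named from the platform annotation where it gives 1 symbol (34945; 932 had several and 9160 are unnamed here). Of the 7 members, 7 matched the GRCm38.p6 gene table by Entrez identifier. As the files name no build, only chromosomes and gene order were taken from that table. The Mesp1 and Mesp2 promoter windows are printed with coordinates in their own stated build. A gene was read by its probe set with the highest mean. Listed genes without a single-symbol probe set were not analysed here.

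The 2 clone numbers in the titles served as replicate numbers. The labels do not say whether the clones were processed together, and any spread between these samples may be technical. With 1 array per clone no test was run. A fixed rule of at least 2-fold, with the brighter clone above background, was used. The calling rule was also run on simulated data, with differences well past 2-fold planted in probe sets well above background. The rule must call such differences, so this run checked the code alone. It says nothing of calls near background, such as that of Mesp1. The members and lists were chosen with earlier results of these data known. Named were all member probe sets, in each list the 2 genes with the largest difference above background and the 2 with the highest signal, the 5 neighbours on each side, and the 5 genes with a difference nearest to that of Mesp1. Genes outside this rule are marked as chosen after their values were seen, apart from the marker genes. Alternatives were 3 normalizations (loess span 0.3), other background levels, other choices of probe sets, and each clone alone. Python 3.11.15, numpy 2.4.6, pandas 2.3.3, statsmodels 0.14.6 and matplotlib 3.10.9 were used.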

Additional observations from a re-analysis of the deposited data

How the results depend on the processing

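Of 278 values recomputed under the alternatives, 223 moved by less than the spread between the clones or, for counts, by at most 1.5 times. Part of that count was fixed in advance. A member's signal in 1 clone always lies within that spread of its mean. Averaging probe sets cannot change a member that is read by 1 probe set. Median centring shifts signals and background level alike, so it cannot change how many listed genes count as above background. Quantile normalization keeps the order of signals within an array, so those counts had little room to change. Reversal was looked for only in members past 2-fold, which is Mesp1 alone, and its difference did not reverse. The Mesp1 difference lay between -1.32 and -1.17 under the 3 normalizations, and the median over the 7 members, -0.34 as reported, between -0.25 and -0.22. The background level mattered most. At the 99th percentile (8.06 in clone 1 and 7.94 in clone 2) 0 members were above background in either clone, 0 passed 2-fold, and 27 listed genes were above background instead of 45. That level lies above every adult tissue probe set except that of Mylpf (10.53 in clone 1 and 10.48 in clone 2). With sensory receptor probe sets 4 members, Mesp1 among them, were above background in each clone, and 73 listed genes. With no level all 7 members in each clone and 104 listed genes count as above. From clone 2 alone 1 member was above background and from clone 1 alone 2; the median member signal was 5.64 and 6.15. The bound on Mesp1 ran from 1.52-fold to 2.28-fold over the levels and normalizations that give one. The 8 genes with a measured signal at least 2-fold higher in clone 1 became between 3 and 132 with other settings, and 5 with the dimmer clone raised to its background level. No paired analysis was possible because both arrays belong to 1 group. With 1 array per clone the sampling error of a difference was not measured, and signals near background are the least certain.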

Other observations

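The 8 genes with a measured signal at least 2-fold higher in clone 1 were looked at by chromosome after their values were seen. Of these, 5 (62.5%) lie on chromosome 7, where 720 of the 9591 genes above background (7.51%) lie. The shares carry no test, since Mesp1 was picked for this difference. They are Mesp1, Rpl27a (an uncertain reading) and the imprinted growth genes Cdkn1c (8.18 in clone 1 and 6.64 in clone 2), Igf2 and Phlda2. These imprinted genes are neighbours at the distal end of the chromosome, so they are not separate counts. The genes above background on chromosome 7 as a whole had a median difference of 0.06, beside 0.09 over all genes above background. Igf2, AU016916 and Spns3 were not above background in clone 2, and their bounds were 1.67-fold, 1.51-fold and 1.35-fold. Of the 5 genes that kept a 2-fold bound, 4 lie on chromosome 7. The others of the 8 genes were Chpf on chromosome 1, Spns3 (6.72 and 5.72) on chromosome 11, and AU016916, for which no chromosome was found. Whether the chromosome 7 genes share a cause was not tested.

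Evx1os, a non-coding transcript next to Evx1, was above background in neither clone, as Evx1 was not (3.46 in clone 1 and 3.31 in clone 2, chosen after its values were seen).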
